A study of Phaseolus coccineus with 4 samples.

Results

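The bZIP family of transcription factors was measured on a soybean expression array in the suspensor and the embryo proper of globular embryos from scarlet runner bean (Phaseolus coccineus). Members were the soybean probe sets whose only gene symbol in the array's annotation is BZIP followed by a number. This gave 89 probe sets for 58 genes, out of 37593 soybean probe sets and 61170 probe sets in all. The rule uses symbols and no signal, but it was set with earlier results of these data known. A further 6 probe sets with a BZIP symbol among several were left out, since they name no single gene.

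Suspensor and embryo proper were each represented by 2 arrays. The suspensor is the stalk that anchors the young embryo in the seed and feeds it, and the embryo proper is the part that becomes the plant. Both groups came from the same cultivar, Hammond's Dwarf Red Flower, with no treatment or transgene named in the labels, and were cut by laser from sections of seeds fixed 6 days after hand pollination. About 106 and 137 ng of RNA from suspensor replicates 1 and 2 and about 60 and 75 ng from embryo proper replicates 1 and 2 were amplified and labelled. The labels name them biological replicates but do not tie them to plants, so a p-value here reflects the spread between the arrays only, which may be technical.

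Proteins of the bZIP class bind DNA through a basic region and pair through a neighbouring leucine zipper, so that a given factor can act as a homodimer or with a partner of the same class. Many of them recognise sites built around an ACGT core. In Arabidopsis the family includes ABI5, which acts in abscisic acid signalling in seeds, HY5, which acts downstream of the light receptors, and bZIP53, which works with partner bZIP proteins on seed maturation genes. The soybean members carry running numbers, and for most of them no role is given here.

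A probe set was called detected on an array when its signal exceeded the 95th percentile of the array's Phytophthora and nematode probe sets. Those are meant for other organisms, and whether bean RNA binds some of them was not tested. The background level so defined was 925 and 1034 on suspensor arrays 1 and 2, against 881 and 873 on embryo proper arrays 1 and 2. Of the 89 bZIP probe sets, 23 and 20 were above it on the suspensor arrays, against 22 and 19 on the embryo proper arrays. As shares these were 25.8% and 22.5% in suspensor, against 24.7% and 21.3% in embryo proper, while 21.8% and 19.5% of all soybean probe sets were above it in suspensor, against 23.3% and 23% in embryo proper. The median signal of the hybridisation spikes, bacterial and phage control transcripts added in fixed amounts, was 97327 and 159448 on the suspensor arrays and 46706 and 58957 on the embryo proper arrays. Input RNA and spike signal thus moved with the region, and their part in the differences below cannot be told apart from it.

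The regional identity of the samples could be checked only in part. PSAD, a photosystem I subunit listed as a marker of the embryo proper, had by its brightest probe set signals of 733 and 734 in suspensor, below background, against 11947 and 17685 in embryo proper. Of the 10 probe sets of the embryo proper markers PSAD and CAB3, 5 were tested. Of these, 2 had a limma adjusted p under 0.05, both lower in suspensor. The other tested PSAD probe set had signals of 1256 and 1025 in suspensor, against 1204 and 638 in embryo proper. Its regions overlapped, and its log2 difference of 0.37 did not pass (limma adjusted p = 0.72). The remaining tested probe sets, of CAB3, had log2 differences of -0.5 and -0.85 and did not pass either. PSAD probe sets that were not tested lay below background on every array. The gibberellin synthesis gene GA20OX3, listed as a suspensor marker, was below background on all 4 arrays, as was ANR1, listed for seed coat. Symbols listed for endosperm and vascular tissue matched no probe set, so those tissues could not be looked for.

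By region, 17 bZIP probe sets were detected on both suspensor arrays and 16 on both embryo proper arrays, while 12 were detected on all 4. These are 19.1%, 18% and 13.5% of the members, beside 14.7%, 18.1% and 11.9% of all soybean probe sets. The probe sets detected on both suspensor arrays and on neither embryo proper array numbered 3, those of BZIP36, BZIP38 and BZIP80, or 3.37% beside 1.12% of all soybean probe sets. The reverse pattern was found once, in BZIP47, or 1.12% beside 2.41%. The counts depend on the background level. At the 90th percentile there were 2 in suspensor alone and 3 in embryo proper alone. These are 2.25% and 3.37%, beside 1.41% and 3.03% of all soybean probe sets. At the 99th there were 1 in suspensor alone and 0 in embryo proper alone. These are 1.12% and 0%, beside 0.652% and 1.89%. At the 90th percentile, 22.5% of the members were detected on both suspensor arrays and 23.6% on both embryo proper arrays. The shares of all soybean probe sets were 19.2% and 23.4%. At the 99th percentile the bZIP shares were 7.87% and 6.74%, below the 9.01% and 11.5% of all soybean probe sets. These shares were not tested against each other. Of 102 MYB probe sets, chosen by symbol in the same way, 7 were detected on both suspensor arrays and 11 on both embryo proper arrays. Of 103 WRKY probe sets, 5 were detected on both suspensor arrays and 8 on both embryo proper arrays.

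**Figure D1:**
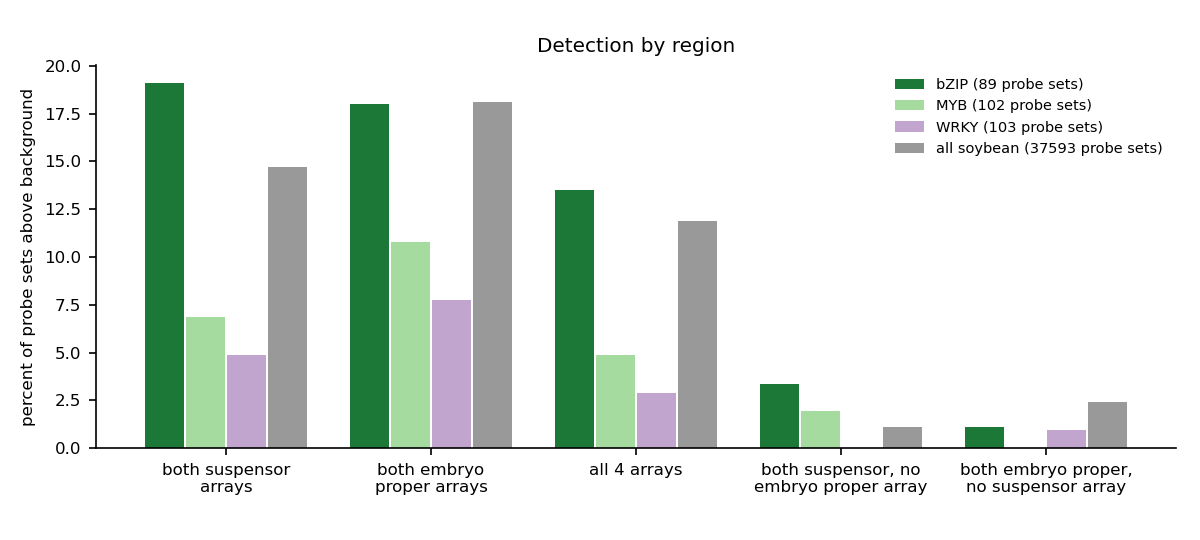
Percent of probe sets above background (y axis) on the arrays named on the x axis, for the bZIP, MYB and WRKY symbols and for all soybean probe sets. The bZIP bars stand at 19.1% for both suspensor arrays and 18% for both embryo proper arrays, beside 14.7% and 18.1% for all soybean probe sets.

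The comparison of suspensor with embryo proper asked whether any bZIP transcript differed in level between the regions. It used the 24 bZIP probe sets, of 21 genes, that were above background on at least 2 of the 4 arrays. They are 27% of the members, beside 23.9% of all soybean probe sets. Differences are of log2(intensity + 16), suspensor minus embryo proper, fitted with limma over all 8972 soybean probe sets that passed this filter, with p-values adjusted over all of them. The filter let in 3 members through the suspensor arrays alone, and these had to differ in signal. It let in 1 through the embryo proper arrays alone. Background was lower on the embryo proper arrays, at 881 and 873 against 925 and 1034, so that member did not have to differ.

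BZIP90 passed the test and was higher in the suspensor, and no bZIP probe set passed as higher in the embryo proper. The BZIP90 probe set GmaAffx.88800.1.A1_at had signals of 7641 and 26970 in suspensor, against 1610 and 1022 in embryo proper. All 4 signals were above background, and the lower suspensor signal was above both embryo proper signals. Its mean signal was 17305 ± 13668 in suspensor, against 1316 ± 416 in embryo proper (SD, n = 2 each). The log2 difference was 3.47 with a standard error of 0.59, or 11.1-fold, and the adjusted p was 0.035. Among all tested probe sets, 2.75% passed, 0.892% on the side of the suspensor and 1.86% on the side of the embryo proper.

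These are bulk samples, in which a smaller number of expressing cells and less RNA per cell cannot be told apart. The signal of BZIP90 differed widely between the suspensor arrays. The log2 difference was 4.38 without suspensor replicate 1 and 2.56 without suspensor replicate 2. Without embryo proper replicate 1 it was 3.79 and no longer past the threshold (limma adjusted p = 0.12), and without embryo proper replicate 2 it was 3.14, also not past it (limma adjusted p = 0.18). In those fits 7 and 3 probe sets of the whole array passed on the side of the suspensor. Without a variance trend the difference of 3.47 did not pass either (limma adjusted p = 0.1).

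BZIP80 was detected in suspensor but not in embryo proper by one of its probe sets, and the difference did not pass. This probe set, GmaAffx.51421.1.S1_at, had signals of 10954 and 3322 in suspensor, against 59.7 and 804 in embryo proper. The regions did not overlap, and both embryo proper signals were below background. Set against the lowest soybean signal above background on those arrays, BZIP80 was at least 6.78-fold brighter in suspensor. That bound was not tested, and the limma adjusted p of 0.078 is for the difference between the signals as they stand. BZIP80 was brighter on suspensor array 1 and BZIP90 on suspensor array 2, so the array that was high for one was the lower one for the other. BZIP80 passed in limma with the background at the 99th percentile (adjusted p = 0.039) and with the replicate number as a block (adjusted p = 0.015). The numbers are not known to pair the arrays. The filter let this probe set in through the suspensor arrays alone, so it had to differ, and these passes add no support. Without embryo proper replicate 2 its log2 difference was 6.32, which rests on an embryo proper signal below background.

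**Figure D2:**
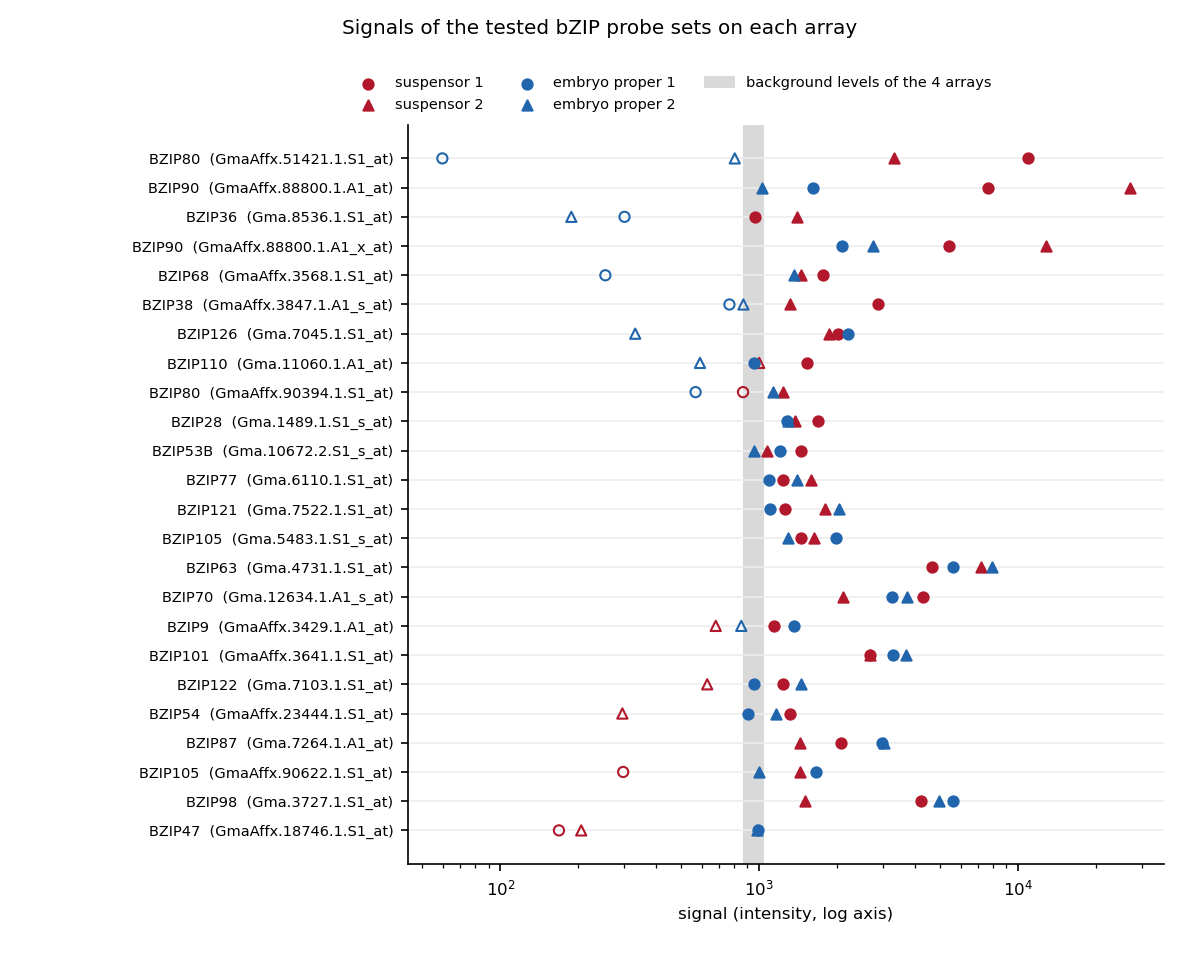
Signal of each tested bZIP probe set (x axis, intensity on a log scale) on the 4 arrays, ordered by the difference between regions, with filled symbols above and open symbols below the array's background level and the grey band spanning the background levels. BZIP90 by GmaAffx.88800.1.A1_at stands at 7641 and 26970 in suspensor and 1610 and 1022 in embryo proper, while BZIP36, BZIP38 and BZIP80 by GmaAffx.51421.1.S1_at have open symbols on both embryo proper arrays and BZIP47 on both suspensor arrays, so the place of these in the order is not measured.

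BZIP36 and BZIP38 were likewise detected on both suspensor arrays alone, so their differences are bounds and have no order. BZIP36 had signals of 963 and 1398 in suspensor, against 302 and 188 in embryo proper, which were below background. BZIP36 was thus at least 1.32-fold higher in suspensor. That bound was not tested. The difference between the signals as they stand did not pass (limma adjusted p = 0.24). A left-out probe set with the same cluster number in its identifier, Gma.8536.1.S1_s_at, lay the other way. It had 553 and 667 in suspensor, below background, against 1429 and 998 in embryo proper, above it. Its difference did not pass (limma adjusted p = 0.36).

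BZIP38 had signals of 2878 and 1312 in suspensor, against 767 and 869 in embryo proper. Both embryo proper signals were below background, the second by little, at 869 against a level of 873. BZIP38 was thus at least 2.2-fold higher in suspensor. That bound was not tested. The difference between the signals as they stand did not pass (limma adjusted p = 0.22). The BZIP38 probe set has shared probes, so it may read more than 1 transcript.

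In BZIP68 and BZIP126 a single embryo proper array set the difference. BZIP68 had signals of 1771 and 1449 in suspensor, against 254 and 1359 in embryo proper, with the 254 below background. The log2 difference was 1.41 (limma adjusted p = 0.35) and was 0.24 without embryo proper replicate 1. BZIP126 had signals of 2010 and 1863 in suspensor, against 2197 and 332 in embryo proper, so its regions overlapped. Its log2 difference of 1.15 (limma adjusted p = 0.45) turned to -0.18 without embryo proper replicate 2.

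BZIP110, whose soybean protein is known from work on salt tolerance, had signals of 1524 and 1000 in suspensor, against 953 and 590 in embryo proper. It was above background on 1 array of each region. The regions did not overlap, by a margin of 1000 in suspensor to 953 in embryo proper, and the log2 difference of 0.71 did not pass (limma adjusted p = 0.47).

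BZIP47, BZIP98 and BZIP87 had no overlap of the regions and lay lower in suspensor, and none of them passed. BZIP47 had signals of 168 and 205 in suspensor, below background, against 990 and 984 in embryo proper. The embryo proper signals were themselves just above background, so BZIP47 was at least 1.01-fold higher there. That bound was not tested, and the limma adjusted p for the difference between the signals as they stand was 0.33. BZIP98 had signals of 4218 and 1507 in suspensor, against 5598 and 4963 in embryo proper, with a log2 difference of -1.06 (limma adjusted p = 0.29). Its regions did not overlap, and the suspensor arrays differed from each other more than suspensor array 1 differed from embryo proper array 2. Without suspensor replicate 1 the difference was -1.8 and passed (limma adjusted p = 0.022), and without suspensor replicate 2 it was -0.32. BZIP87 had signals of 2069 and 1434 in suspensor, against 2969 and 3037 in embryo proper, a log2 difference of -0.8 with a limma 95% interval from -1.64 to 0.05. Its embryo proper arrays lay close together and above both suspensor arrays.

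A larger group of members had similar signals in both regions. In 11 of the 24 tested probe sets the log2 difference was under 0.5 in size, or 45.8% beside 44.5% of all tested probe sets. BZIP63 had signals of 4647 and 7203 in suspensor, against 5584 and 7940 in embryo proper. Its replicates differed more than its regions, and the limma 95% interval of the log2 difference ran from -1.06 to 0.66. BZIP101 had signals of 2690 and 2680 in suspensor, against 3283 and 3674 in embryo proper, with no overlap and an interval from -1.12 to 0.38. BZIP70 had signals of 4285 and 2110 in suspensor, against 3251 and 3724 in embryo proper, which overlapped. The intervals of BZIP63, BZIP101 and BZIP70, the last from -1.19 to 0.77, leave room for differences of up to about 1 on the log2 scale, so equal levels are not shown.

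BZIP53B carries the name of Arabidopsis bZIP53, the seed maturation factor. It had signals of 1454 and 1075 in suspensor, against 1199 and 952 in embryo proper, and the regions overlapped. The log2 difference was 0.22, with an interval from -0.79 to 1.23. BZIP28 had signals of 1689 and 1380 in suspensor, against 1285 and 1288 in embryo proper, and BZIP77 had 1234 and 1583 in suspensor, against 1087 and 1394 in embryo proper. BZIP121 had signals of 1263 and 1800 in suspensor, against 1097 and 2024 in embryo proper, a log2 difference of 0.02. BZIP53B, BZIP28, BZIP77 and BZIP121 lay above background on every array, and BZIP28 was the only one of them whose regions did not overlap. The probe sets of BZIP28, BZIP53B and BZIP70 have shared probes and may read more than 1 transcript.

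The remaining tested members were detected on some arrays of each region. BZIP122 had signals of 1236 and 630 in suspensor, against 954 and 1452 in embryo proper. BZIP54 had signals of 1312 and 296 in suspensor, against 903 and 1160 in embryo proper. BZIP9 had signals of 1144 and 679 in suspensor, against 1364 and 852 in embryo proper. In all 3 the regions overlapped, suspensor array 2 was the lowest and lay below background, and the log2 differences were -0.41, -0.69 and -0.29.

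**Figure D3:**
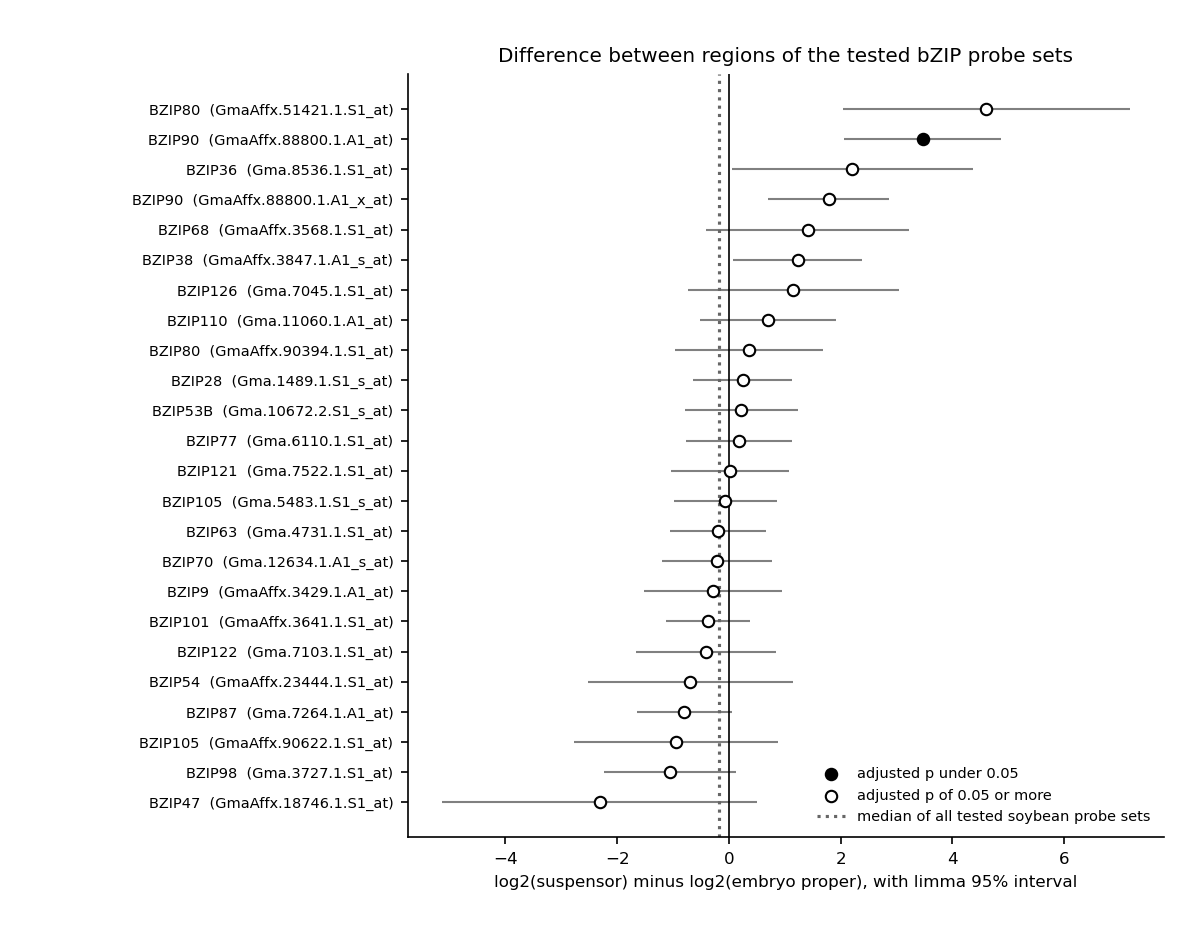
Log2 difference between suspensor and embryo proper (x axis) of the 24 tested bZIP probe sets, as points with limma 95% intervals, with the filled point past an adjusted p of 0.05 and the dotted line at the median of all tested probe sets, -0.18. The filled point is BZIP90 by GmaAffx.88800.1.A1_at at 3.47, and most intervals cross 0. The points of BZIP36, BZIP38, BZIP47 and BZIP80 by GmaAffx.51421.1.S1_at rest on signals below background in one region, so their sizes are not measured.

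Over the 24 tested probe sets, 13 differences were positive, beside 40.8% of all tested probe sets, and 11 negative. Their median was 0.1 on the log2 scale, beside -0.18 over all tested probe sets. With each array centred on its Phytophthora and nematode signals, the bZIP median was -0.067, beside -0.35 for all tested probe sets. Both suspensor signals were above both embryo proper signals in 8 of 24, beside 19.8% of all tested probe sets, and below them in 4 of 24, beside 33.4%. At an unadjusted limma p under 0.05, 5 of the 24 lay on the suspensor side, beside 6.55% of all tested probe sets, and 0 on the embryo proper side, beside 13.5%. In either direction the share of all tested probe sets was 20.1%. These 5 probe sets were those of BZIP36, BZIP38 and BZIP80 that were undetected in the embryo proper and both detected probe sets of BZIP90. Since detection chose 3 of the 5 and a single gene gave the remaining pair, the counts describe the members and test nothing about the family. The counts by that p were 2 on the suspensor side and 0 on the embryo proper side among 18 tested MYB probe sets, and 0 in either direction among 15 tested WRKY probe sets.

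The spread between replicates was like that of other probe sets in suspensor and wider in embryo proper. Among the tested bZIP probe sets, replicates lay a median of 0.57 apart on the log2 scale in suspensor, against 0.55 in embryo proper. Over all tested probe sets those medians were 0.56 in suspensor, against 0.36 in embryo proper. This was not tested.

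Probe sets of the same bZIP gene did not always agree on detection. Of the 58 genes, 23 had more than 1 probe set. Of these, 12 had at least 1 that was tested and 11 had none. Those 12 genes had 28 probe sets, of which 15 were tested and 13 were above background on no array. BZIP80 was the only one of the 23 genes with every probe set tested. BZIP90, BZIP80 and BZIP105 had 2 tested probe sets each, and the probe sets of each gene had differences of the same sign, as had 63.7% of the 413 pairs of tested probe sets that share a symbol. For BZIP80 and BZIP105 the sign of a probe set turned when 1 array was left out.

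BZIP90 has 4 probe sets. GmaAffx.88800.1.A1_x_at, which has shared probes, had signals of 5386 and 12772 in suspensor, against 2080 and 2742 in embryo proper. It was above background on every array with no overlap of the regions, and its log2 difference of 1.79, or 3.46-fold, did not pass (limma adjusted p = 0.093). GmaAffx.88800.1.S1_at, made from the same sequence cluster but in the opposite strand orientation by its name, had signals of 50.2 and 547 in suspensor, against 796 and 675 in embryo proper, all below background. GmaAffx.79390.3.S1_at had signals of 281 and 375 in suspensor, against 65.4 and 58.3 in embryo proper, also all below background. The higher level of BZIP90 in suspensor was thus read by the pair of probe sets of A orientation, which 16 of the 89 members and 7 of the 24 tested ones have. That pair comes from the same cluster and may share probes, so it is not independent, and which strand the bean transcript pairs with was not tested.

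BZIP80 has 2 probe sets. GmaAffx.90394.1.S1_at had signals of 866 and 1232 in suspensor, against 568 and 1127 in embryo proper, each region with 1 array below background, and a log2 difference of 0.36 (limma adjusted p = 0.75). Since GmaAffx.51421.1.S1_at was below background in embryo proper, the size of the gap between the differences of the BZIP80 probe sets was not measured. In a limma fit over the 413 pairs of tested probe sets that share a symbol, chosen after the values were seen, the differences between regions were 1.68 apart on the log2 scale in the BZIP90 pair (adjusted p = 0.3) and 0.88 apart in the BZIP105 pair (adjusted p = 0.62). The share of the 413 pairs that passed was 0%, and 14.8% had an unadjusted limma p under 0.05.

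BZIP105 by Gma.5483.1.S1_s_at, which has shared probes, had signals of 1453 and 1624 in suspensor, against 1988 and 1292 in embryo proper. By GmaAffx.90622.1.S1_at it had 298 and 1439 in suspensor, against 1662 and 995 in embryo proper. The log2 differences were -0.06 and -0.95, the second set by suspensor array 1, without which it turned to 0.16. The third probe set of BZIP105 had signals from 23.6 to 51.1 over the 4 arrays. The second probe set of BZIP101 had signals from 17.6 to 52.4 and was likewise below background on every array.

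**Figure D4:**
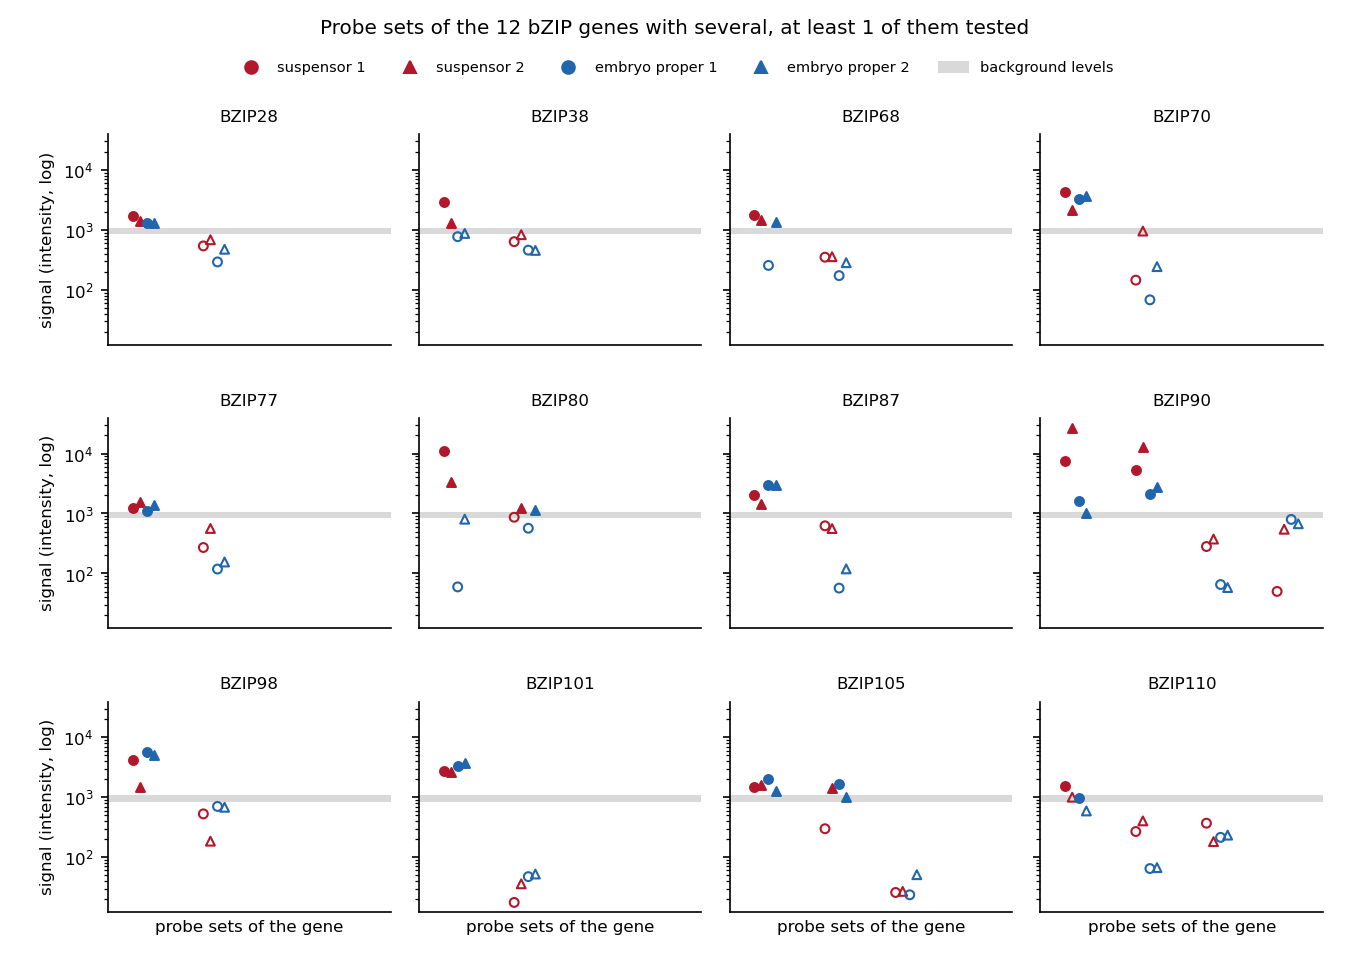
Signals (y axis, intensity on a log scale) of each probe set of the 12 bZIP genes that have several and at least 1 tested, with probe sets side by side on the x axis, filled symbols above and open symbols below background. In BZIP90 a pair of probe sets is high in suspensor and the other pair lies below the grey band of background levels, and in BZIP101 and BZIP105 a probe set lies far below that band.

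Outside the tested members, 7 probe sets were above background on exactly 1 array, or 7.87% of the members beside 10.4% of all soybean probe sets. BZIP72 came closest to a regional pattern, with signals of 1070 and 932 in suspensor, against 184 and 351 in embryo proper, but the second suspensor signal was below background. BZIP1, whose soybean protein is known as a regulator in abscisic acid and drought responses, had signals of 156 and 1065 in suspensor, against 153 and 167 in embryo proper, by GmaAffx.32011.2.S1_at. The 1065 was on suspensor array 2 alone, and the other BZIP1 probe set stayed below background. Both probe sets of BZIP55 were detected on 1 embryo proper array each, on array 1 at 1241 and on array 2 at 1287. The remaining ones were a pair for BZIP111 and the probe set of BZIP113. Of the BZIP111 pair, GmaAffx.5069.1.S1_at had 101 and 134 in suspensor, against 930 and 439 in embryo proper, and GmaAffx.5069.2.A1_at had 1034 and 565 in suspensor, against 644 and 871 in embryo proper. BZIP113 had 360 and 937 in suspensor, against 953 and 202 in embryo proper.

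No probe set was above background on any array for 32 genes. They include BZIP44, BZIP62 and BZIP132, whose soybean proteins are known from work on salt and abscisic acid responses. BZIP44 had signals of 106 and 52.2 in suspensor, against 171 and 156 in embryo proper, and BZIP132 had 80.9 and 73.8 in suspensor, against 62.7 and 132 in embryo proper. By its 3 probe sets BZIP62 had signals from 20.5 to 439 in suspensor, against 17 to 161 in embryo proper. The other genes were BZIP10, BZIP16, BZIP21, BZIP35, BZIP37, BZIP42, BZIP46, BZIP48, BZIP50, BZIP58, BZIP59, BZIP61, BZIP69, BZIP71, BZIP81, BZIP82, BZIP83, BZIP85, BZIP89, BZIP94, BZIP95, BZIP108, BZIP109, BZIP112, BZIP114, BZIP117, BZIP124, BZIP125 and BZIP130. Over the 58 probe sets that were undetected on every array, signals ran from 6.2 to 952 with a median of 138.5. These probe sets are 65.2% of the members, beside 65.7% of all soybean probe sets, so the family is near the share of the whole array. Bean RNA that differs from the soybean probe gives little signal, so these values do not show that the transcripts were absent.

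Genes that work with bZIP factors were few on the array by symbol. GBF2, of the G-box binding factors, and STF2, a soybean relative of Arabidopsis HY5, were the only bZIP factors matched under other names and had 4 probe sets, all below background on every array. Of 4 genes for abscisic acid signalling, SPK-3, a soybean protein kinase, was tested by 1 of its 2 probe sets. It had signals of 3377 and 2497 in suspensor, against 999 and 1554 in embryo proper, with no overlap, and its log2 difference of 1.21 was short of the threshold (limma adjusted p = 0.17). The other SPK-3 probe set lay the other way, with 117 and 139 in suspensor, against 490 and 350 in embryo proper, all below background. SPK-1, SPK-2 and SPK-4 were below background on all arrays. Symbols listed for partners of TGA-type bZIP factors matched no probe set.

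Among seed maturation regulators and targets, 2 of 5 genes were tested and neither passed. SLE2 had signals of 1161 and 1189 in suspensor, against 720 and 478 in embryo proper, where both were below background. This bounds the fold at 1.33 or more in favour of suspensor. The limma adjusted p of 0.35 is for the difference between the signals as they stand. LEA-2, a late embryogenesis gene, had a log2 difference of 0.65 (limma adjusted p = 0.45). Of 3 light signalling genes, 2 were tested and PHYA, the photoreceptor phytochrome A, was lower in suspensor, with signals of 3383 and 3374 in suspensor, against 15747 and 13832 in embryo proper (limma adjusted p = 0.02). COP10, which acts with COP1 upstream of HY5 in Arabidopsis, had 1604 and 1594 in suspensor, against 1733 and 2193 in embryo proper, and did not pass (limma adjusted p = 0.69).

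**Figure D5:**
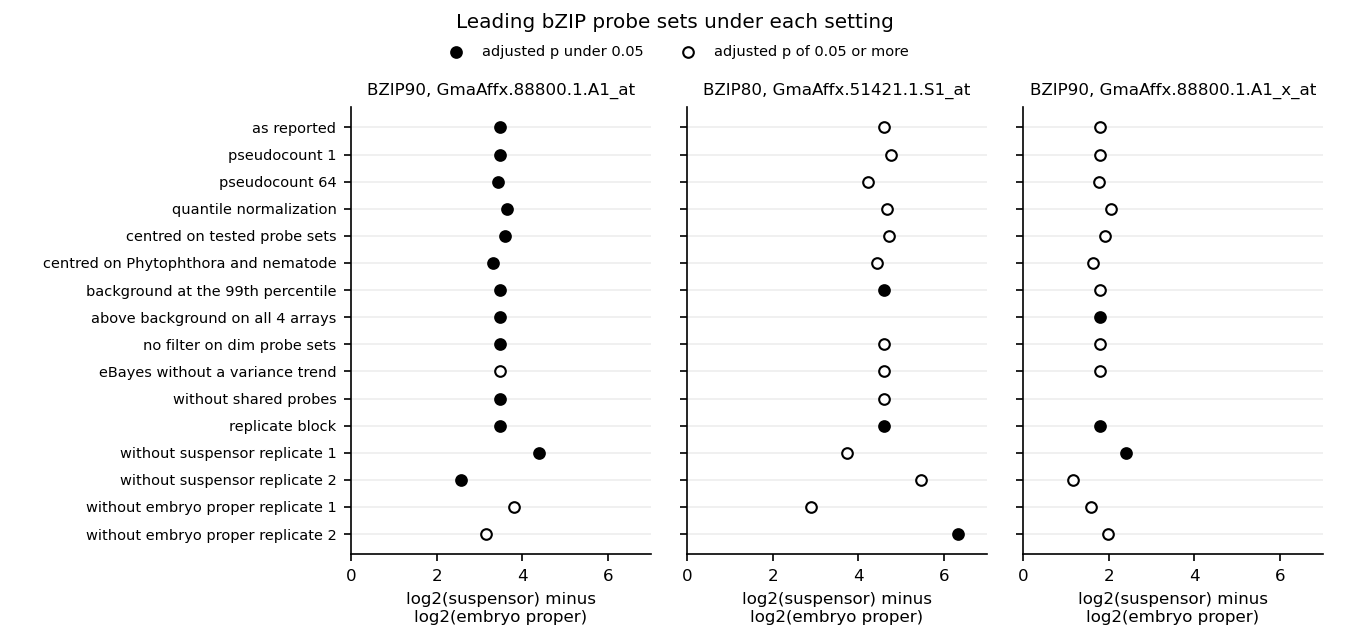
Log2 difference between suspensor and embryo proper (x axis) of BZIP90 by both of its tested probe sets and of BZIP80 by GmaAffx.51421.1.S1_at under each processing setting (y axis), filled where the limma adjusted p was under 0.05. All points lie right of 0, and BZIP90 by GmaAffx.88800.1.A1_at is filled in 12 of 15 alternative settings, while its second probe set and BZIP80 are each filled in 3 of 14. The BZIP80 values rest on embryo proper signals below background, so their size is not measured and its filled points add no support.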

How the data were processed

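RNA of 2 suspensor and 2 embryo proper samples had been hybridised to Affymetrix soybean arrays. The deposited intensities, 1 per probe set on a linear scale, were made by the authors in GCOS 1.3, as the submitters' processing notes record. How GCOS summarised the probes, and its detection calls, are not stated in the sources used here. Their trimmed mean, without 2% at each end, was 500 on every array, and no further normalization was applied. Genes were named from the platform annotation; no position is given, since 0 member identifiers matched the bean gene table.

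From these intensities, log2(intensity + 16) was compared between regions with limma 3.58.1 in R 4.3.3 (lmFit, eBayes with a variance trend), over 8972 of 37593 soybean probe sets above background on at least 2 of 4 arrays, with Benjamini-Hochberg adjustment over all of them and a threshold of 0.05. Background was the 95th percentile of 23350 Phytophthora and nematode probe sets. An "at least" fold divides the bright region by the dim one after raising each dim array to its lowest detected soybean signal wherever the probe set lay under it, with means taken on the log2 scale. No such bound was tested, and a limma p given near it is for the log2 difference between the signals as they stand. Folds on the log2(intensity + 16) scale understate changes of dim probe sets. On simulated data the fit was tested first. With 2 arrays a region, their number limits the precision. Levels of different probe sets are not compared, except that where a gene is given 1 value, its probe set with the highest mean signal was taken.

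Every bZIP probe set above background on at least 2 arrays is named with its 4 signals, and of each other list up to 3 genes by smallest p. Members and lists were chosen with earlier results of these data known. Same-numbered arrays deviated together with a correlation of -0.024, and the labels do not say what the number marks, so arrays were not paired. Pseudocount, scaling, filter, variance trend, shared probes, replicate block and each array left out were varied.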

Additional observations from a re-analysis of the deposited data

Results flagged for a closer look

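The probe sets that list a BZIP symbol among several name no single gene and entered no comparison above. Of these 6, 3 carried signal above background on at least 1 array. Gma.18028.1.S1_s_at reached 1042 on suspensor array 2, just above that array's level of 1034. Gma.8536.1.S1_s_at had signals of 553 and 667 in suspensor, below background, against 1429.4 and 997.6 in embryo proper, above it. It did not pass (limma adjusted p = 0.36). The BZIP36 probe set with the same cluster number in its identifier lay the other way. It was detected in suspensor alone, at least 1.32-fold higher there, and its difference did not pass either. GmaAffx.92179.1.S1_s_at had signals of 789 and 1354.7 in suspensor, the first below background, against 1282.7 and 1333.2 in embryo proper, and a log2 difference of -0.33. Groups of 2 arrays are too small for a search for outlying samples.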

How the results depend on the processing

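Over all tested probe sets, 80 passed as higher in suspensor and 167 as higher in embryo proper. With quantile normalization 198 passed as higher in suspensor, with centring on the tested probe sets 129, and 48 with centring on Phytophthora and nematode signals. The counts in suspensor and in embryo proper were 134 and 293 for a background at the 99th percentile, 192 and 334 where all 4 arrays had to be above background, 21 and 66 without a variance trend, 48 and 111 without shared probes and 138 and 292 with a replicate block. Leaving out each array in turn gave 3 to 153 in suspensor and 3 to 1054 in embryo proper, with the lone array assumed to vary like the other region. The numbers are not known to pair the arrays.

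Of bZIP probe sets, 2 passed as higher in suspensor at the 99th percentile and 2 where all 4 arrays had to be above background, 0 without a variance trend and 3 with the replicate block. Leaving out an array gave 0 to 2 in suspensor and 0 to 1 in embryo proper, the 1 being BZIP98 without suspensor replicate 1. BZIP90 by GmaAffx.88800.1.A1_at kept its difference of 3.47 without the variance trend but lost its call (limma adjusted p = 0.1), and it ranged from 2.56 to 4.38 as arrays were left out, losing its call without either embryo proper array. Positive differences numbered 5 of 11 at the 99th percentile, 6 of 12 under the 4-array filter and 53 of 89 without the filter. The matching shares over all probe sets are not given here, so these counts are not read as a trait of the family. The genes positive by their brightest probe set numbered 11 of 21, or 4, 5 and 35 under those filters. The bZIP median was 0.18 with quantile normalization, 0.22 centred on tested probe sets, -0.067 centred on Phytophthora and nematode signals, -0.061 at the 99th percentile, -0.023 under detection on all 4 arrays, 0.20 without the filter, -0.093 without shared probes, and 0.027 to 0.21 as arrays were left out, so its sign is not settled. The median of all tested probe sets was -0.09, -0.06 and -0.35 under the 3 other scalings. It was -0.25 at the 99th percentile, -0.11 under detection on all 4 arrays, 0.013 without the filter and -0.19 without shared probes. As arrays were left out it ran from -0.29 to -0.013. At the 99th percentile, 7 bZIP probe sets were above background on both suspensor arrays and 6 on both embryo proper arrays. These are 7.87% and 6.74% of the members, below the 9.01% and 11.5% of all soybean probe sets. Without shared probes, 11 were above background on both suspensor arrays.

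The sign turned in 18 of 329 repeats for single probe sets. Quantile normalization gave 0.062 for BZIP63 and 0.049 for BZIP105 (Gma.5483.1.S1_s_at), centring on tested probe sets gave 0.060 for that BZIP105 probe set, and centring on Phytophthora and nematode probe sets gave -0.15 for BZIP121. As arrays were left out, BZIP63 ranged from -0.52 to 0.11, BZIP105 from -0.37 to 0.25 by that probe set and from -2.05 to 0.16 by GmaAffx.90622.1.S1_at, BZIP70 from -0.72 to 0.30, BZIP121 from -0.42 to 0.45 and BZIP54 from -1.74 to 0.35. BZIP122 ranged from -0.89 to 0.069, BZIP9 from -0.65 to 0.084, BZIP80 by GmaAffx.90394.1.S1_at from -0.12 to 0.85 and BZIP126 from -0.18 to 2.49. The cause was not tested.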
